A study of Mus musculus with 9 samples.

Results

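Hepcidin is a small peptide hormone that controls how much iron enters the blood, and 8 genes of hepcidin and of cellular iron transport were followed in gland RNA of the mouse stomach. They are the hepcidin genes Hamp and Hamp2, the iron exporter Slc40a1 (ferroportin), the ferroxidase Heph (hephaestin), the ferric reductase Cybrd1, the ferrous iron importer Slc11a2 (DMT1) and the transferrin receptors Tfrc and Tfr2. They were chosen by name and function from a table of 18423 genes, knowing that Hamp2 was low in 1 of the comparisons made here. Further iron transport genes of the table, such as Slc25a28, are in the wider lists below. Of the 8, 6 passed the filter on low values needed for a test across all genes (3 or more of the 9 libraries with 1 FPKM or more, as 11209 genes had), while Tfr2 and Heph did not. FPKM counts the fragments of a gene, scaled to the length of the gene and to the depth of the library.

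The glands came from the corpus, the acid-secreting body of the stomach, and were loosened with EDTA and scraped off before poly(A) RNA was sequenced. WT mice were wild type. Ctrl mice carried Atp4bCre and Rosa26NICD, so that Cre, driven from the Atp4b gene of acid-secreting parietal cells, switches on the Notch intracellular domain from the Rosa26 locus. Arid1a_Het mice carried Atp4bCre, Rosa26NICD and Arid1aflox/+, which adds 1 floxed copy of the chromatin remodelling gene Arid1a to both transgenes of the Ctrl group. Each group had 3 libraries. Where a stomach had tumours, the corpus regions taken were those bearing them. Each library is labelled as coming from a mouse of its genotype, ages are not given, and p-values measure only the spread between these libraries.

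Hepcidin binds ferroportin, the only known exporter of iron from cells, and causes its breakdown, which keeps iron inside. The liver makes most hepcidin from Hamp, under BMP and SMAD signals that report iron stores and under IL-6 and STAT3 in inflammation. Mice have a second gene, Hamp2, whose peptide is not known to act on iron in the same way. Parietal cells of the stomach have been reported to make hepcidin, and the intestine takes up iron through the reductase Cybrd1 and the importer Slc11a2 and passes it to the blood through ferroportin and hephaestin.

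The libraries held 22651385 to 29478481 reads on genes, as worked out from the FPKM values. Arid1a was between 5.90 and 8.94 FPKM in the Arid1a_Het libraries and between 13.3 and 16.2 FPKM in the Ctrl libraries, which agrees in direction with the labels, and between 7.79 and 13.5 FPKM in WT, which overlapped Arid1a_Het. The corpus markers were present in every library, with at least 90.5 FPKM of Atp4a, a subunit of the parietal proton pump, and at least 5474 FPKM of Pgc, a pepsinogen of chief cells. Exocrine pancreas markers, 14 of 14 of them above 1 FPKM, summed to 4281 FPKM in Ctrl 1 and 1663 FPKM in Arid1a_Het 3, against 81.0 to 328 FPKM in the other 7 libraries. Several results, but not all, are also given without those 2 libraries.

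The hepcidin genes are neighbours that share sequence, and reads can be told apart only where the copies differ. Hamp lies at chr7:30942368-30944032 and Hamp2 at chr7:30922372-30924681 (GRCm38, GENCODE M21), both on the minus strand, with 17686 bases between them. How the authors counted reads that fit both copies is not given in the sources used here, so both genes are also given as a sum below.

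The regions before their starts were compared, while their transcribed sequences were not. In the window from -250 to -11 relative to each RefSeq start (GRCm38.p6), 218 of 243 aligned positions were identical (89.7%), with 19 mismatches and 6 gapped positions. The windows are printed because liver hepcidin is known to respond to BMP and STAT signals through its promoter, and because the transgene acts through RBPJ. GGCGCC is the core of the BMP-responsive element, TTCNNNGAA is the STAT site and TGGGAA is the core bound by RBPJ, the DNA-binding partner of NICD. Both strands were searched, capitals mark matches, and the sequences read 5′ to 3′ on the minus strand.
Hamp promoter, chr7:30944040-30944279: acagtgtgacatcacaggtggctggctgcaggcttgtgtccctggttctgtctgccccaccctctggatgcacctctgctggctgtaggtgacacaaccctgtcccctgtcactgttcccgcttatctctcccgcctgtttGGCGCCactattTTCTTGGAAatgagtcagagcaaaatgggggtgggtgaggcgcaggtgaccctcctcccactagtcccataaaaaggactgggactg
Hamp2 promoter, chr7:30924192-30924431: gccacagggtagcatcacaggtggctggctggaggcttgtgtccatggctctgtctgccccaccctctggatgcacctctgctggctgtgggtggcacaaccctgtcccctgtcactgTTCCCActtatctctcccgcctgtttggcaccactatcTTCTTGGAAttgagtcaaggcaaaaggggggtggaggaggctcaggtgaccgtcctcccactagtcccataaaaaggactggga
Hamp held GGCGCC starting 109 bases before its start (-109) and a STAT match at -97. Hamp2 held the same STAT letters at -94 and, at -132, the letters TTCCCA, which are TGGGAA on the other strand. Counting from 1 at the 5′ end of the match and naming the gene with the match first, the BMP core of Hamp differed from the aligned letters of Hamp2 by G4A, and the RBPJ letters of Hamp2 differed from those of Hamp by A6G. Neither window had a second match. Among 32841 windows of 240 bases in the RefSeq table, 9.09% held GGCGCC, 6.77% held TTCNNNGAA and 20.8% held TGGGAA, so the letters are common, and a match is only a description. The Hamp2 window lies inside the annotated span of the gene given above. Among the other members with a window, Cybrd1 held GGCGCC at -39 and Tfrc held it at -89 of 1 of its 2 starts, and Tfr2 held TGGGAA before 1 of its 3 starts.

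Hamp2 was the more abundant hepcidin gene in every library, and it was highest in WT. Its level was 84.3, 403 and 152 FPKM in WT 1 to 3, 3.90, 17.1 and 6.28 FPKM in Ctrl 1 to 3, and 20.4, 59.5 and 3.59 FPKM in Arid1a_Het 1 to 3, from 50 to 6005 reads. Every WT library was above every library of both transgenic groups, and the ranges of Ctrl and Arid1a_Het overlapped. In WT 2 Hamp2 ranked 87th from the top of all genes by FPKM, and in Ctrl 1 it ranked 8240th. The group means were 213 ± 168 FPKM in WT, 9.10 ± 7.05 FPKM in Ctrl and 27.8 ± 28.7 FPKM in Arid1a_Het (SD, n = 3), so the WT mean was 23.4-fold that of Ctrl and 7.65-fold that of Arid1a_Het. On the log2(FPKM + 1) scale, which understates changes of low genes, Ctrl minus WT was -4.33 with a standard error of 0.91 and Arid1a_Het minus WT was -3.26 with a standard error of 0.91. Since the fall in Ctrl was known when the genes were chosen, these are descriptions without a test. Without Ctrl 1 and Arid1a_Het 3 they were -3.92 and -2.27. Arid1a_Het minus Ctrl was 1.07 (SE 0.91, 95% interval -0.99 to 3.12, adjusted p = 0.622), and 1.65 (adjusted p = 0.696) without Ctrl 1 and Arid1a_Het 3.

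**Figure D1:**
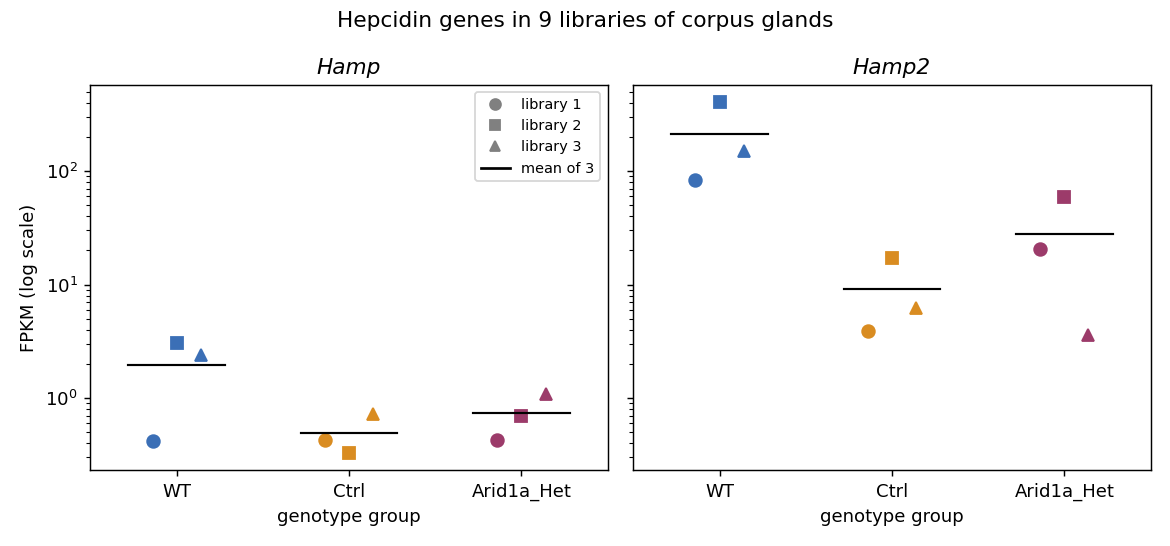
FPKM of Hamp and Hamp2 in the 9 libraries on log axes, by group; points are libraries, with their shape giving the library number. All WT points of Hamp2 lie above 84 FPKM and all others below 60 FPKM, while Hamp stays between 0.331 and 3.06 FPKM.

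Hamp, the liver hormone gene, was near the limit of counting. It had 0.420, 3.06 and 2.41 FPKM in WT 1 to 3, 0.430, 0.331 and 0.722 FPKM in Ctrl 1 to 3, and 0.426, 0.690 and 1.09 FPKM in Arid1a_Het 1 to 3, from 4 to 33 reads. WT 2, WT 3 and Arid1a_Het 3 were the 3 libraries at or above 1 FPKM, and WT 1 lay among the Ctrl libraries, so the groups overlapped in every comparison. Counting error alone gives WT 2 a range of 2.10 to 4.29 FPKM and Ctrl 2 a range of 0.0901 to 0.847 FPKM (exact Poisson 95% intervals). The range of WT 1, 0.114 to 1.08 FPKM, lay below that of WT 2 in the same group and overlapped that of Ctrl 2. Ctrl minus WT was -0.86 (SE 0.36) and Arid1a_Het minus WT -0.66 (SE 0.36) on the log2(FPKM + 1) scale, given without a test as for Hamp2. Arid1a_Het minus Ctrl was 0.21 (SE 0.36, adjusted p = 0.808).

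Summing the copies left the picture as Hamp2 gave it. The sum differed by -4.25 (SE 0.86) in Ctrl minus WT, by -3.16 (SE 0.86) in Arid1a_Het minus WT and by 1.09 (SE 0.86, adjusted p = 0.604) in Arid1a_Het minus Ctrl. Hamp made up 0.496% to 1.57% of the summed FPKM in WT, 1.89% to 10.3% in Ctrl and 1.15% to 23.3% in Arid1a_Het, and the 3 libraries lowest in Hamp2 (Arid1a_Het 3, Ctrl 1 and Ctrl 3) had its 3 highest shares. Hepatocyte markers were low in most libraries: their sum of 10 genes was 21.6 FPKM in WT 2, 28.3 FPKM in Arid1a_Het 3 and 0.448 to 3.40 FPKM in the other 7. Alb, the albumin gene and the highest of the list, was 12.9 FPKM in WT 2, 16.6 FPKM in Arid1a_Het 3 and 0.134 to 2.13 FPKM elsewhere. Both libraries were among the 3 highest for Hamp, while Arid1a_Het 3 was the lowest for Hamp2; the part of liver RNA in the Hamp values was not tested.

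Hamp2 followed the parietal cell genes from library to library. Atp4a was 1234, 7584 and 2923 FPKM in WT 1 to 3, 90.5, 470 and 406 FPKM in Ctrl 1 to 3, and 690, 2557 and 184 FPKM in Arid1a_Het 1 to 3. As with Hamp2, library 2 was the highest of each group. Unlike Hamp2, Atp4a in WT 1 was below Arid1a_Het 2. Kcnj16, a potassium channel gene, had the profile closest to Hamp2 among all other tested genes, with a root mean square difference of 0.35 between centred log2(FPKM + 1) values over the 9 libraries, where Hamp2 itself spread by 2.16. Next came Apoa1, the main protein of HDL particles (0.46), and Atp4b, the other subunit of the proton pump and the gene that drives Cre in the transgenic mice (0.50), while Atp4a was at 0.63 and Hamp at 1.86. The 12 parietal markers summed to 4089 to 15286 FPKM in WT, 1139 to 2049 FPKM in Ctrl and 1479 to 5835 FPKM in Arid1a_Het. The order of libraries within groups was not particular to parietal genes. The 5 chief cell markers summed to 12057, 82457 and 36367 FPKM in WT 1 to 3. Their sums were 5726, 19463 and 6564 FPKM in Ctrl 1 to 3 and 13158, 82692 and 7303 FPKM in Arid1a_Het 1 to 3. Within each group this is the order of Hamp2, but Arid1a_Het 2 was above every WT library. In bulk RNA, fewer cells of a type and less RNA per cell cannot be told apart.

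The level of Hamp2 relative to Atp4a varied far less than either gene alone. Per 1000 FPKM of Atp4a there were 68.3, 53.1 and 51.9 FPKM of Hamp2 in WT 1 to 3. The values were 43.0, 36.4 and 15.5 in Ctrl 1 to 3 and 29.6, 23.3 and 19.5 in Arid1a_Het 1 to 3. The means were 57.8 ± 9.16 in WT, 31.6 ± 14.4 in Ctrl and 24.1 ± 5.11 in Arid1a_Het (SD, n = 3). All 3 WT values stayed above the other 6, by a much smaller factor than for Hamp2 itself, and Ctrl and Arid1a_Het overlapped. This ratio was chosen after its values could be seen and was not tested.

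**Figure D2:**
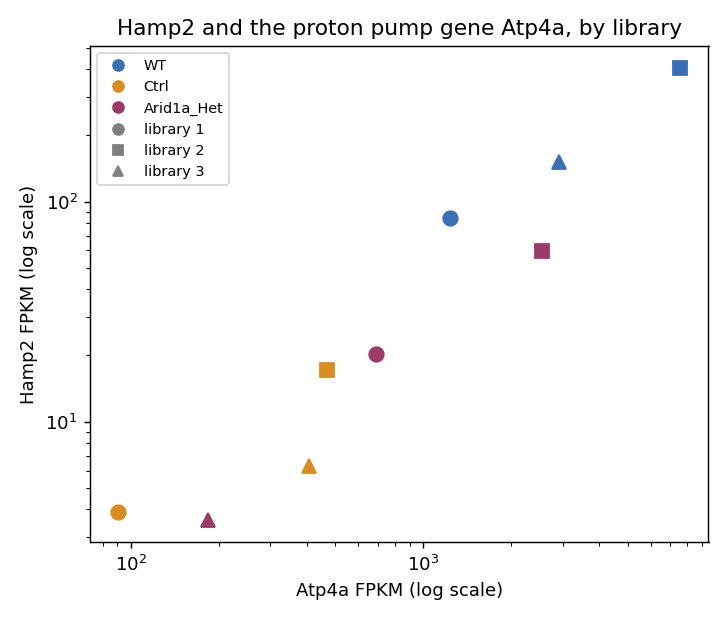
Hamp2 against Atp4a in the 9 libraries, both in FPKM on log axes; colours are groups and shapes library numbers. The points fall along a band from Ctrl 1 (90.5 FPKM of Atp4a, 3.90 FPKM of Hamp2) to WT 2 (7584 and 403 FPKM).

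The exporter Slc40a1 was expressed at a low level in all groups. It had 0.856, 1.25 and 0.717 FPKM in WT 1 to 3, 2.86, 0.855 and 0.625 FPKM in Ctrl 1 to 3, and 0.489, 0.436 and 1.24 FPKM in Arid1a_Het 1 to 3, from 111 to 584 reads. The highest values of the transgenic groups were in the libraries with pancreas genes, Ctrl 1 and Arid1a_Het 3, and all groups overlapped. Ctrl minus WT was 0.23 (SE 0.33, adjusted p = 0.617), Arid1a_Het minus Ctrl was -0.43 (SE 0.33, adjusted p = 0.595) and Arid1a_Het minus WT was -0.19 (SE 0.33, adjusted p = 0.845). Slc40a1 passed the level filter through exactly 3 libraries, and its difference in Ctrl minus WT was -0.0553 after quantile normalization. Without Ctrl 1 and Arid1a_Het 3 it did not pass the filter, and the Ctrl values left (0.855 and 0.625 FPKM) and the Arid1a_Het values left (0.489 and 0.436 FPKM) were within or below the WT range.

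Heph, which oxidises the iron that ferroportin releases, showed the same high libraries. It had 0.287, 0.278 and 0.118 FPKM in WT 1 to 3, 1.99, 0.690 and 0.507 FPKM in Ctrl 1 to 3, and 0.424, 0.143 and 1.38 FPKM in Arid1a_Het 1 to 3. Every Ctrl library was above every WT library, and Ctrl 1 and Arid1a_Het 3 were the only libraries above 1 FPKM. Without Ctrl 1, the Ctrl values of 0.690 and 0.507 FPKM still lay above all WT values. With no filter on low values, Ctrl minus WT was 0.68 (SE 0.32, adjusted p = 0.221). Macrophages recycle iron and are a known site of ferroportin: their 9 markers summed to 5.96 to 48.0 FPKM in WT, 21.7 to 44.9 FPKM in Ctrl and 11.4 to 82.4 FPKM in Arid1a_Het, with the maximum in Arid1a_Het 3 and 22.2 FPKM in Ctrl 1. The part of pancreas or macrophage RNA in Slc40a1 and Heph was not tested.

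On the uptake side, Slc11a2 was the steadiest of the tested members. It had 4.41, 4.84 and 4.68 FPKM in WT 1 to 3, 7.39, 5.93 and 6.18 FPKM in Ctrl 1 to 3, and 5.18, 4.77 and 6.71 FPKM in Arid1a_Het 1 to 3. All Ctrl libraries were above all WT libraries, by 1.40-fold on the means, and Arid1a_Het overlapped both. Ctrl minus WT was 0.41 (SE 0.16, 95% interval 0.04 to 0.77) and did not pass the test over all genes (adjusted p = 0.124); it was 0.32 without Ctrl 1 and Arid1a_Het 3. The median of all tested genes was 0.24 in the same comparison and moved by -0.23 with median-ratio size factors and by -0.24 with quantile normalization, under which the Slc11a2 difference was 0.18 and 0.11. Arid1a_Het minus Ctrl was -0.20 (SE 0.16, adjusted p = 0.610) and Arid1a_Het minus WT was 0.21 (SE 0.16, adjusted p = 0.596).

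Cybrd1, the reductase that prepares dietary iron for Slc11a2, varied widely within groups. It had 57.7, 20.0 and 21.7 FPKM in WT 1 to 3, 24.9, 5.003 and 9.21 FPKM in Ctrl 1 to 3, and 11.9, 8.31 and 51.3 FPKM in Arid1a_Het 1 to 3. WT 1 and Arid1a_Het 3 were each above 50 FPKM, Ctrl 1 was the highest of its group, and all groups overlapped. Ctrl minus WT was -1.38 (SE 0.72, 95% interval -3.01 to 0.25, adjusted p = 0.207), and -1.96 (adjusted p = 0.0555) without Ctrl 1 and Arid1a_Het 3. Arid1a_Het minus Ctrl was 0.66 (SE 0.72, adjusted p = 0.691). It was 0.49 (adjusted p = 0.740) without both Ctrl 1 and Arid1a_Het 3, and -0.0898 (adjusted p = 0.945) without Arid1a_Het 3 alone. Arid1a_Het minus WT was -0.72 (SE 0.72, adjusted p = 0.701), and -1.47 (adjusted p = 0.274) without Ctrl 1 and Arid1a_Het 3. The 7 duodenal enterocyte markers summed highest in WT 1 (419 FPKM) and to 67.9 to 299 FPKM in Ctrl, highest in Ctrl 1, but only to 102 FPKM in Arid1a_Het 3. Sis, the sucrase gene that defines those cells, was at 1.65 FPKM in Ctrl 1 and at 0 in the other 8 libraries. Whole reads cannot be worked out for a gene above 0 in only 1 library. The reads behind this value are therefore not known, and nothing is read from it. The part of duodenal RNA in the Cybrd1 values was not tested.

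**Figure D3:**
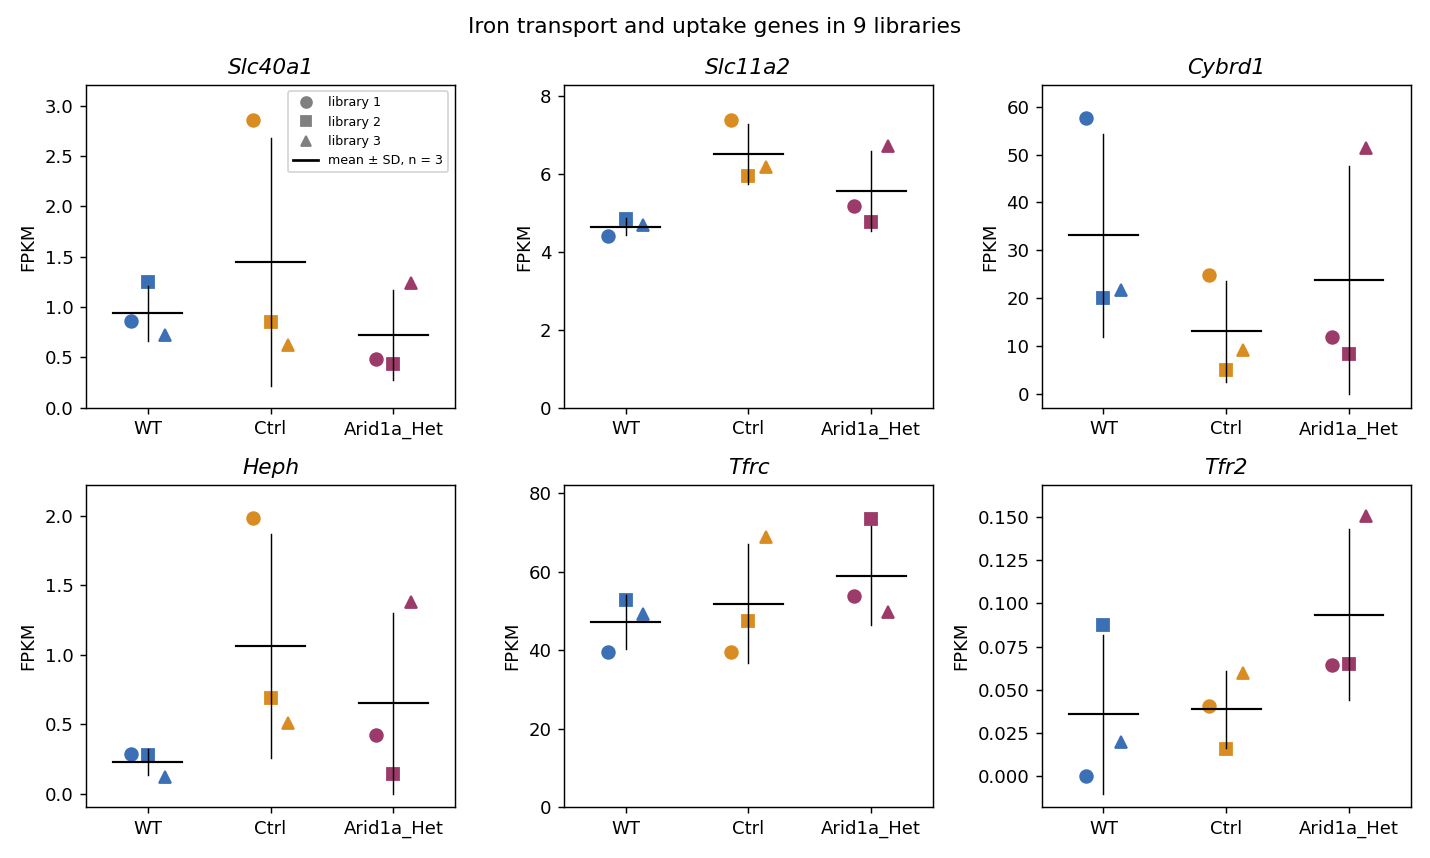
FPKM of Slc40a1, Slc11a2, Cybrd1, Heph, Tfrc and Tfr2 in the 9 libraries, 1 panel a gene; points are libraries, bars the mean ± SD of 3. Slc40a1 and Heph are highest in Ctrl 1 and Arid1a_Het 3 within the transgenic groups, and Tfrc stays between 39.5 and 73.4 FPKM.

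Tfrc, which brings transferrin-bound iron into most cells and is high in dividing ones, was abundant throughout. It had 39.6, 52.8 and 49.3 FPKM in WT 1 to 3, 39.5, 47.4 and 68.8 FPKM in Ctrl 1 to 3, and 53.8, 73.4 and 49.8 FPKM in Arid1a_Het 1 to 3. The groups overlapped in all comparisons. Ctrl minus WT was 0.11 (SE 0.23, adjusted p = 0.753), Arid1a_Het minus Ctrl was 0.20 (SE 0.23, adjusted p = 0.707) and Arid1a_Het minus WT was 0.31 (SE 0.23, 95% interval -0.21 to 0.82, adjusted p = 0.578). The first of these took the opposite sign, -0.16, with median-ratio size factors. Without Ctrl 1 and Arid1a_Het 3 the differences were 0.28, 0.14 and 0.42 in the same order. The 8 markers of dividing cells summed to 25.5 to 121 FPKM in WT, 125 to 134 FPKM in Ctrl and 54.2 to 111 FPKM in Arid1a_Het.

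Tfr2, the second transferrin receptor, which senses iron in liver and red cell precursors, was barely detected. It was at 0, 0.0876 and 0.0199 FPKM in WT 1 to 3, 0.0407, 0.0156 and 0.0597 FPKM in Ctrl 1 to 3, and 0.0644, 0.0652 and 0.151 FPKM in Arid1a_Het 1 to 3, from 0 to 19 reads. All Arid1a_Het libraries were above all Ctrl libraries, on 35 against 13 reads in all. With no filter, Arid1a_Het minus Ctrl was 0.07 (SE 0.04, adjusted p = 0.578). The highest value was in Arid1a_Het 3, the library with the highest sum of hepatocyte markers.

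Across members, the levels per gene length were ordered by their medians over the 9 libraries as Tfrc at 49.8 FPKM, Hamp2 at 20.4 FPKM, Cybrd1 at 20.0 FPKM, Slc11a2 at 5.18 FPKM, Slc40a1 at 0.855 FPKM, Hamp at 0.690 FPKM, Heph at 0.424 FPKM and Tfr2 at 0.0597 FPKM. Over the 9 libraries, the ranges of Tfrc, Hamp2 and Cybrd1 overlapped one another, and that of Slc11a2 overlapped those of Hamp2 and Cybrd1. The ranges of Slc40a1, Hamp and Heph overlapped, and that of Tfr2 overlapped that of Heph. In WT alone Hamp2 was the highest member in each library, and in Ctrl Tfrc was.

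Of the 6 tested members, 1 was called lower in Ctrl against WT (Hamp2, whose known fall led to the choice) and none higher, at an adjusted p under 0.05. Over all tested genes 10.1% were called in that comparison, 3.04% lower and 7.01% higher, and nothing is read from the members' count. The shares called lower and higher depended on the scaling, as given below for the wider lists. Of all 8 members, Slc11a2 and Heph were higher in every Ctrl library than in every WT library and Hamp2 was lower in every one. Over all tested genes 33.5% and 10.2% separated in that way, so 2 of 8 higher and 1 of 8 lower are near those shares. In Arid1a_Het against Ctrl no member was called, against 0.00892% of all genes in either direction, and in Arid1a_Het against WT none was called, against 2.75%. Tfr2 separated upwards in the former, as did 2.41% of all tested genes, and Hamp2 downwards in the latter, as did 8.57%. The 3 comparisons share libraries, and so their values are not independent.

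**Figure D4:**
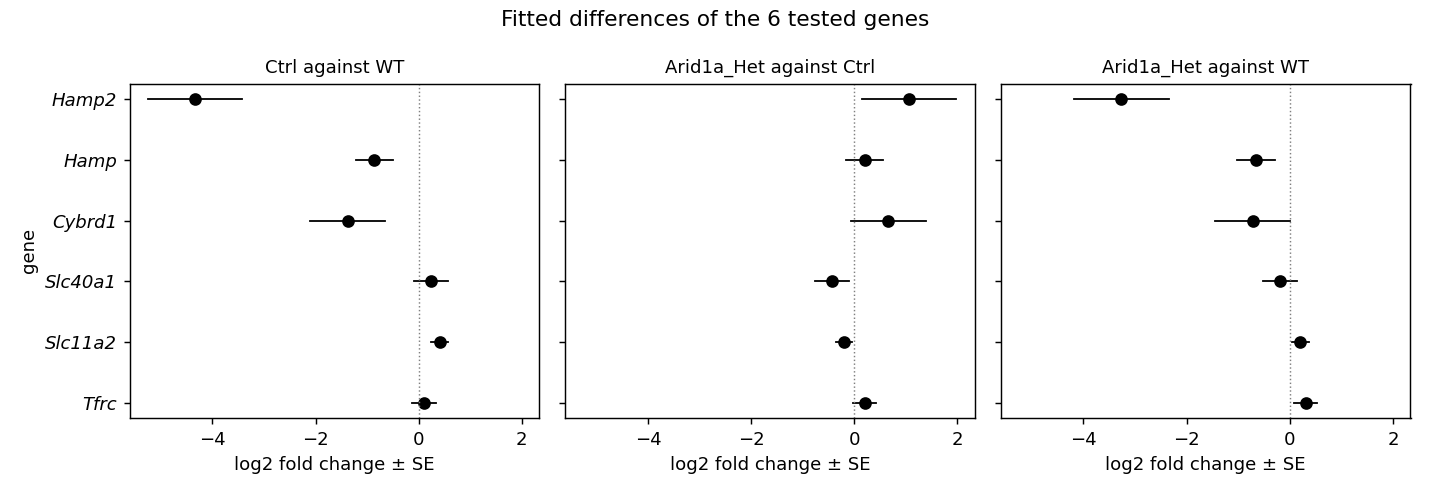
Log2 fold change of the 6 tested members in the 3 comparisons on the log2(FPKM + 1) scale, with points for the estimate and bars for ± 1 SE from limma. Hamp2 lies furthest from 0 in both comparisons with WT, where the hepcidin values are descriptions, and it and Cybrd1 have the widest bars.

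Each of the other tested members had a different nearest profile, by the same measure as for Hamp2. The closest were BC022687 for Hamp (0.22, own spread 0.55), Car12, a carbonic anhydrase, for Slc40a1 (0.24, own spread 0.41), Tmem251 for Slc11a2 (0.06, own spread 0.21), Trim12c for Tfrc (0.16, own spread 0.28) and B3galt5, a galactosyltransferase, for Cybrd1 (0.43, own spread 1.05). Next in order came Pitpnc1 and Drd3 for Hamp, Gpx2-ps1 and Dpysl2 for Slc40a1, Ptp4a1 and Faap100 for Slc11a2, Tle4 and Ndnf for Tfrc, and Ly6g6c and Scg3 for Cybrd1.

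Genes of the wider iron pathway moved in both directions in the transgenic glands. In Ctrl against WT, 9 of 69 tested genes of 5 lists (regulators of hepcidin, iron storage, carriers and reductases, heme, and iron-sulfur clusters) were called higher and 8 lower, against 7.01% and 3.04% of all tested genes. Their median difference was 0.12, against 0.24 over all tested genes. The shares of all tested genes, used here and for each list below, depended on the scaling. The genes called lower in Ctrl against WT numbered 341 in the main fit and 699 with quantile normalization. With that scaling and with median-ratio size factors, more of all tested genes were called lower than higher. Of the lists' genes, 6 were called higher and 9 lower with either scaling. No gene of the lists was called in Arid1a_Het against Ctrl, and 2 were called higher and 2 lower in Arid1a_Het against WT, where 2.06% and 0.687% of all genes were; these were Ltf and Steap1, and Smad1 and Acvr2a. Without Ctrl 1 and Arid1a_Het 3 the counts for Ctrl against WT were 5 higher and 0 lower. With the library number as a block they were 16 higher and 10 lower.

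Among 21 tested regulators of hepcidin, 3 rose and 4 fell in Ctrl against WT, against 7.01% and 3.04% of all tested genes. Bmp6, the BMP ligand that carries the iron signal to Hamp in the liver, had 0.125, 0.520 and 0.125 FPKM in WT 1 to 3, 3.64, 3.04 and 5.25 FPKM in Ctrl 1 to 3, and 2.81, 1.06 and 7.89 FPKM in Arid1a_Het 1 to 3. All WT libraries were below all others, and the difference was 1.98 in Ctrl against WT (adjusted p = 0.0274) and 1.73 in Arid1a_Het against WT (adjusted p = 0.0814). Bmp2, a ligand of the same pathway, went the other way, with 20.97, 30.9 and 24.5 FPKM in WT 1 to 3, 9.32, 11.02 and 13.3 FPKM in Ctrl 1 to 3 and 16.4, 23.3 and 14.8 FPKM in Arid1a_Het 1 to 3. It fell by 1.11 in Ctrl against WT (adjusted p = 0.0167). Smad1, which carries the BMP signal to the nucleus, was 10.5 FPKM on average in WT, 5.87 FPKM in Ctrl and 5.33 FPKM in Arid1a_Het, and fell by 0.76 in Ctrl against WT (adjusted p = 0.0281) and by 0.86 in Arid1a_Het against WT (adjusted p = 0.0348).

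The other named regulators were a co-receptor, a receptor and an inhibitor. Neo1 (neogenin), a partner of hemojuvelin, fell by 0.66 in Ctrl against WT (adjusted p = 0.0183). Acvr2a, an activin and BMP receptor, differed by -0.40 in Ctrl against WT (adjusted p = 0.0793) and fell by 0.60 in Arid1a_Het against WT (adjusted p = 0.0458). Socs3, the feedback inhibitor of IL-6 and STAT3 signalling, rose from 9.94 FPKM in WT to 30.2 FPKM in Ctrl, a difference of 1.52 (adjusted p = 0.0348), and was 17.4 FPKM in Arid1a_Het. The other calls in Ctrl against WT were Smad6, which fell, and Cebpa, which rose, both named beyond the rule so that the count is complete. Each of the calls of Bmp2, Neo1, Smad1, Bmp6 and Socs3 in Ctrl against WT was lost when some single libraries were left out. Bmp6 lost its call without any 1 of the 6 WT and Ctrl libraries (adjusted p up to 0.113), Socs3 without WT 2, WT 3 or any Ctrl library (up to 0.134), Smad1 without any WT library, Ctrl 2 or Ctrl 3 (up to 0.0929), Bmp2 without WT 2, WT 3, Ctrl 1 or Ctrl 2 (up to 0.0634) and Neo1 without WT 3, Ctrl 1 or Ctrl 2 (up to 0.0700). Without both Ctrl 1 and Arid1a_Het 3, the adjusted p in Ctrl against WT was 0.0570 for Bmp2, 0.0791 for Neo1, 0.0551 for Smad1 and 0.0685 for Socs3. With no filter it was 0.0636 for Bmp6 and 0.0716 for Socs3. Against WT, the Arid1a_Het call of Acvr2a was lost without any 1 of the 9 libraries (up to 0.179) and that of Smad1 without any 1 of them other than Ctrl 3 and Arid1a_Het 2 (up to 0.119). Without both Ctrl 1 and Arid1a_Het 3 their adjusted p was 0.236 and 0.147.

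The carriers, reductases and oxidases held the largest differences. In Ctrl against WT, 6 of 13 tested genes were called higher and 1 lower, with a median difference of 1.10. Over all tested genes 7.01% were called higher and 3.04% lower, with a median of 0.24. Ltf (lactoferrin), an iron-binding protein of secretions and of neutrophil granules, was 0.262 to 1.33 FPKM in WT, 155 to 442 FPKM in Ctrl and 52.2 to 651 FPKM in Arid1a_Het, with no overlap with WT. Lcn2 (lipocalin 2), which binds bacterial iron carriers, was 0.0656 to 0.0821 FPKM in WT, 9.76 to 16.0 FPKM in Ctrl and 1.17, 1.13 and 10.05 FPKM in Arid1a_Het 1 to 3. Ltf rose by 7.35 (adjusted p = 0.00203) and Lcn2 by 3.70 (adjusted p = 0.00579) in Ctrl against WT. In Arid1a_Het against Ctrl, Lcn2 differed by -1.91 (adjusted p = 0.369), and only 2 of 19 alternatives called it. It differed by -2.65 (adjusted p = 0.0309) without both Ctrl 1 and Arid1a_Het 3. It differed by -2.70 (adjusted p = 0.00316) without Arid1a_Het 3 alone, the library with the highest neutrophil marker sum. That sum, over 6 genes, was 0.766 to 2.21 FPKM in WT, 34.9 to 81.2 FPKM in Ctrl, and 4.45, 7.98 and 85.2 FPKM in Arid1a_Het 1 to 3. It was carried by S100a8 and S100a9, the latter at 58.8 FPKM in Arid1a_Het 3, while the other 4 markers (Ngp, Camp, Mpo and Ly6g) were each under 1 FPKM in every library. Camp, a neutrophil granule gene, was at 0 in every library but Arid1a_Het 3, where it had 0.318 FPKM. The part of neutrophil RNA in Ltf and Lcn2 was not tested.

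Trf (transferrin), the iron carrier of the blood, had 6.94, 13.4 and 2.79 FPKM in WT 1 to 3, 38.4, 36.1 and 24.1 FPKM in Ctrl 1 to 3, and 13.2, 10.9 and 38.4 FPKM in Arid1a_Het 1 to 3. It rose by 2.13 in Ctrl against WT (adjusted p = 0.0386), with no overlap of the groups. Steap1, of the metalloreductase family, rose from 10.5 FPKM in WT to 26.4 FPKM in Ctrl, a difference of 1.28 (adjusted p = 0.00595), and to 20.4 FPKM in Arid1a_Het, a difference of 0.91 (adjusted p = 0.0390). Steap3, the ferric reductase of the transferrin endosome, moved the opposite way, from 2.22 FPKM in WT to 0.854 FPKM in Ctrl, and fell by 0.80 (adjusted p = 0.0354). Slc25a28, a mitochondrial iron importer, rose by 0.63 (adjusted p = 0.0403) in Ctrl, with 13.4 FPKM in WT, 21.3 FPKM in Ctrl and 13.6 FPKM in Arid1a_Het. Steap4 also rose and is named beyond the rule. In Ctrl against WT, Ltf, Lcn2 and Steap1 kept their calls in all 19 alternatives (adjusted p up to 0.0230, 0.0386 and 0.0361). Steap3 and Slc25a28 lost theirs without any 1 of the 6 WT and Ctrl libraries (up to 0.126 and 0.136) and Trf without any of them but WT 2 (up to 0.110). Without both Ctrl 1 and Arid1a_Het 3, the adjusted p was 0.0617 for Trf, 0.0766 for Steap3 and 0.110 for Slc25a28. The scaling also ended calls: with median-ratio size factors Trf had an adjusted p of 0.0706, and Slc25a28 a difference of 0.38 (adjusted p = 0.110). With quantile normalization the adjusted p was 0.0567 for Trf and 0.0588 for Slc25a28. With no filter it was over 0.05 for Trf (0.0790), Steap3 (0.0536) and Slc25a28 (0.0532), as it was for Steap3 with a pseudocount of 0.1 (0.0553) and Slc25a28 with voom (0.0563). Steap1 in Arid1a_Het against WT lost its call without any 1 library other than WT 3 and Arid1a_Het 2 (up to 0.132), and its adjusted p was 0.209 without both Ctrl 1 and Arid1a_Het 3. With voom the Arid1a_Het call of Ltf was lost (adjusted p = 0.0572).

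The storage gene Fth1 had the highest mean of the lists' tested genes in every group, and none of the 8 storage genes was called. In Ctrl against WT 10.1% of all tested genes were. Fth1 and Ftl1, the heavy and light chains of ferritin, were named after their values were seen. Fth1 averaged 1764 ± 944 FPKM in WT, 941 ± 226 FPKM in Ctrl and 1236 ± 298 FPKM in Arid1a_Het (SD, n = 3). Its difference in Ctrl against WT was -0.81 (adjusted p = 0.161, and 0.0498 with the library number as a block), and that of Ftl1 was -0.44 (adjusted p = 0.129). Fbxl5, the ligase subunit that removes iron regulatory protein 2 when iron is plentiful, had the lowest p of the list, with 6.69 FPKM in WT and 9.90 FPKM in Ctrl, a difference of 0.50 (adjusted p = 0.109, and 0.0391 with the block).

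Of 16 tested heme genes, 1 fell in Ctrl against WT and none rose, against 3.04% and 7.01% of all tested genes. It was Cpox, the coproporphyrinogen oxidase of heme synthesis, at 33.8 FPKM in WT and 22.4 FPKM in Ctrl (difference -0.56, adjusted p = 0.0484). None of 11 tested iron-sulfur genes rose, against the same 7.01%. Abcb10, a mitochondrial transporter linked to heme synthesis, fell from 25.9 FPKM in WT to 17.1 FPKM in Ctrl (difference -0.59, adjusted p = 0.0418). Both calls were lost without some single libraries: Cpox lost its call without any 1 library but WT 2 (adjusted p up to 0.149) and Abcb10 without any WT or Ctrl library or Arid1a_Het 1 (up to 0.122). Without both Ctrl 1 and Arid1a_Het 3 the adjusted p was 0.159 for Cpox and 0.0620 for Abcb10. Both were also over 0.05 with no filter, with voom and with only the 2 groups fitted. Parietal cells are rich in mitochondria, and the parietal marker sum was lower in every Ctrl library than in every WT library; its part in these differences was not tested.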

How the data were processed

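Poly(A) RNA of 9 libraries was sequenced after a stranded library preparation, per the labels' protocols. The authors deposited FPKM values for 18423 genes, after alignment with STAR 2.4.2a to mouse (GRCm38 and mm10 are named), per the submitters' processing notes. The counting tool, its annotation and its use of strand and of reads with several matches are not given in the sources used here. Groups were taken from the labels. Values were analysed as log2(FPKM + 1) with limma 3.58.1 (R 4.3.3; lmFit and eBayes with trend, 3 group means over 9 libraries), for 11209 genes with at least 1 FPKM in at least 3 libraries, and p-values were adjusted by Benjamini-Hochberg over all of them and called under 0.05. The step between low values gave whole reads for all 18423 genes (within 0.01 read), with 22651385 to 29478481 reads per library. A gene above 0 in only 1 library comes out as 1 read whatever its true count. Counts that share a common factor come out too low. On simulated data 99.5% of 18042 genes came out exact. The simulation was drawn from the recovered reads, so it cannot show how many real genes have such errors. The fit was also tested on simulated data.

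The members and gene lists were chosen with earlier results of these data known. Genes named are the 8 members, up to 6 called genes per list by lowest p (the lowest p where none was called), the 3 closest profiles of each tested member, and the highest gene of each marker list. The text uses only the marker lists that touch a result; the highest genes were Cela1 for pancreas (up to 1014 FPKM), Rbp2 for enterocytes (up to 186 FPKM), C1qa for macrophages (up to 25.0 FPKM), S100a9 for neutrophils (up to 58.8 FPKM), Mcm5 for dividing cells (up to 30.8 FPKM) and Alas2 for red cells (up to 12.0 FPKM). The erythroid list, 5 of whose 9 genes were in the table, summed to 0.311 to 12.3 FPKM. Same-numbered WT and Ctrl libraries deviated together from their group means (correlations of 0.207, 0.336 and 0.138). Differently numbered libraries were not compared in this way, and the labels do not say whether the numbers pair mice. The main fit used no pairing. The library number was used only in the block alternative, which also blocked the Arid1a_Het libraries. Same-numbered correlations of Arid1a_Het with Ctrl and with WT had both signs, and whether the numbers pair those mice is not known. Sequences were read from RefSeq promoter windows and gene positions from GENCODE M21. Some items are not reported here. Windows were found for Hamp, Hamp2, Tfrc, Tfr2 and Cybrd1. Alternatives covered the pseudocount, filters, scaling, samples fitted, a replicate block, limma voom on whole reads, left-out libraries and the hepcidin sum.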

Additional observations from a re-analysis of the deposited data

How the results depend on the processing

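Precision is limited by 3 libraries a group and, for Hamp and Tfr2, by few reads. The median of all tested genes moved by more than 0.1 under median-ratio size factors (-0.23 in Ctrl against WT, 0.19 in Arid1a_Het against Ctrl), quantile normalization (-0.24 and 0.18) and no filter (-0.16 and 0.10), and without WT 2 by -0.13 in Ctrl against WT and -0.11 in Arid1a_Het against WT. Of 309 values of members under the alternatives, 295 kept their direction and side of the threshold and 6 changed sign. For named pathway genes the numbers were 862 of 1020 and 19. The cause of the changes below was not tested, apart from the smaller number of libraries or changed number of genes in some fits. Hamp2 in Ctrl against WT ranged from -4.86 to -3.72; its adjusted p was over 0.05 without WT 2 (0.0787), WT 3 (0.0609), Ctrl 1 (0.0716) or Ctrl 3 (0.0872) and with no filter (0.0538), and 0.0226 without Ctrl 1 and Arid1a_Het 3. These describe the known fall and do not test it.

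In Ctrl against WT, the 9 pathway genes called higher became 3 with no filter, 16 with the replicate block, 5 without Ctrl 1 and Arid1a_Het 3, and 3 to 11 without single libraries. The 8 called lower became 4 with no filter, 5 with only those 2 groups fitted, 5 with voom, 0 without Ctrl 1 and Arid1a_Het 3, and 0 to 7 without single libraries. The 1 member called lower became 0 with no filter and 0 to 2 without single libraries; the second was Hamp without WT 1 (-1.33, adjusted p = 0.0183). In Arid1a_Het against Ctrl, the 0 pathway genes called lower became 1 without Ctrl 1 and Arid1a_Het 3 and 0 to 1 without single libraries. In Arid1a_Het against WT, the 2 pathway genes called higher became 4 with a pseudocount of 0.1, 1 with no filter, 1 with only those 2 groups, 4 with the replicate block, 0 with voom, 1 without Ctrl 1 and Arid1a_Het 3, and 1 to 4 without single libraries. The 2 called lower became 0 with no filter, 0 with only those 2 groups, 0 without Ctrl 1 and Arid1a_Het 3, and 0 to 2 without single libraries. The 0 members called lower became 1 with the replicate block and 0 to 1 without single libraries; in both cases it was Hamp2 (block adjusted p = 0.0167; without Arid1a_Het 2, -4.13 and 0.0229). The block changed no other member's call. With the 2 groups that include Arid1a_Het, same-numbered libraries correlated at -0.151, 0.467 and -0.0202 (with Ctrl) and 0.252, 0.563 and -0.279 (with WT).

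Signs changed as follows; ranges are over fits that leave out 1 library each. In Ctrl against WT, Slc40a1 was -0.0553 with quantile normalization, and Tfrc was -0.155 with median-ratio size factors and ranged from -0.112 to 0.280. In Arid1a_Het against Ctrl with quantile normalization, Slc11a2 was 0.0478, Smad1 0.154, Acvr2a 0.0547 and Bmp6 0.00712. Smad1 was also 0.0879 with median-ratio size factors and 0.0377 without Ctrl 1 and Arid1a_Het 3. In the same comparison, Smad1 ranged from -0.256 to 0.0252, Bmp6 from -0.806 to 0.250, Cybrd1 from -0.0898 to 1.24, Steap3 from -0.0246 to 0.240 and Cpox from -0.0371 to 0.0663. In Arid1a_Het against WT, Slc25a28 was -0.0323 with median-ratio size factors, -0.0361 with quantile normalization and -0.0145 without Ctrl 1 and Arid1a_Het 3, and ranged from -0.0883 to 0.135.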
